A study of Mus musculus with 23 samples.

Results

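Gene counts of 7 subunits of the GABA-A receptor, the chloride channel opened by γ-aminobutyric acid, were followed in the hippocampus of anemic and non-anemic mouse pups. The genes were taken by symbol and not by a cut-off on measured values, but earlier results of these data were known. Gabra2, Gabra3, Gabra4 and Gabra5 encode α subunits, Gabrb1 and Gabrb2 encode β subunits, and Gabrd encodes the δ subunit. Each has 1 row among the 24421 gene rows of the count table. All 7 passed the filter on low counts, which left 15475 genes for testing.

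Polyadenylated RNA of the whole hippocampus was sequenced on postnatal day 14. The pups had severe (sPIA) or moderate (mPIA) phlebotomy-induced anemia, an anemia caused by repeated small blood draws, or were non-bled controls (NBC) that received only a needle prick in the neck. The first draws, 5.25 µl for each g of pup, were made on postnatal day 3 and aimed at a hematocrit, the share of red cells in the blood, of 18% in sPIA or 25% in mPIA pups. Draws of 3.5 µl per g each day followed until day 14. The groups were sPIA females, mPIA females, sPIA males and mPIA males with 4 libraries each, NBC females with 4, and NBC males with 3 (numbered 2, 3 and 4). Since the design text speaks of males and females as separate animals, a library was taken to be 1 mouse. The labels used here name no strain.

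Library totals ran from 15.2 to 26.4 M counts (M, mega), apart from mPIA female 3 with 44.4 M. Markers of dentate granule cells, CA1 and CA3 pyramidal cells, interneurons and glia were all detected in this tissue labelled hippocampus. The library codes in the labels fall into series: NBC and mPIA females share 1 kind of code, sPIA females, sPIA males and NBC males share another, and mPIA males have a kind of their own. Code series and anemia level therefore cannot be told apart when sPIA females are compared with NBC or mPIA females, or mPIA males with NBC or sPIA males. Of the sex comparisons, the one for sPIA crosses code series in females alone, and the one for mPIA in males alone. Each code also carries an S number, whose meaning is not given. It lay between 13 and 20 in sPIA libraries of both sexes and between 38 and 55 in all other libraries. Severe anemia and this number therefore cannot be told apart in either sex. The summed level of 10 choroid plexus markers was 2643 and 4697 CPM in NBC males 3 and 4, 2119 CPM in NBC female 2 and 1414 CPM in sPIA female 2, against 18.1 to 262 CPM in every other library. Libraries also differed in how counts followed the GC content of a gene: the rank correlation of each gene's deviation from its mean over all libraries with its GC content, over 14882 genes, lay between 0.179 and 0.55 in NBC females, between 0.154 and 0.474 in mPIA females and between -0.436 and 0.0334 in sPIA females. In males it lay between -0.255 and 0.0157 for NBC, between -0.103 and 0.3 for mPIA and between -0.402 and -0.0792 for sPIA.

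A GABA-A receptor is a ring of subunits around a chloride channel, most often made of α and β subunits with a γ or δ subunit. GABA binds between α and β, and benzodiazepines bind between α and γ. In the rodent forebrain, α2, α3 and α5 are prominent before and around birth. In the hippocampus α5 and the pair of α4 with δ are known for receptors outside the synapse that carry a tonic current, and α2 for receptors on the cell body and axon initial segment of pyramidal cells.

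The 4 α genes differ in a short coding stretch that decides whether the receptor answers to classical benzodiazepines. It is shown because these genes make up most of the members, and because it is where their protein products are known to part in their pharmacology. The capitals mark the codon of the deciding residue, which is histidine (CAC) in α2, α3 and α5 and arginine (AGG) in α4. Each stretch has 33 bases, lies within 1 coding exon and is written 5′ to 3′ on the coding strand, from GENCODE transcripts on build GRCm38, also called mm10.
Gabra2, chr5:71014490-71014522, minus strand, exon 5 of 10: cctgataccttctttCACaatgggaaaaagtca
Gabra3, chrX:72501153-72501185, minus strand, exon 5 of 10: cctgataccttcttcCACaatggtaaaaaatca
Gabra4, chr5:71641137-71641169, minus strand, exon 4 of 9: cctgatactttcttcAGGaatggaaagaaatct
Gabra5, chr7:57488876-57488908, minus strand, exon 5 of 10: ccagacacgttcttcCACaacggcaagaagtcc
Gabra2 and Gabra3 were the closest pair, with 30 of 33 bases alike, and Gabra4 and Gabra5 the most distant, with 23 of 33. The counts sum over a whole gene, so they do not read this codon.

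The whole genes lie on 5 chromosomes of GRCm38. Gabra2 (chr5:70957597-71095849), Gabra4 (chr5:71569749-71658308) and Gabrb1 (chr5:71658113-72149037) are neighbours. Gabra3 (chrX:72432681-72656848) is X-linked, Gabra5 lies at chr7:57407672-57510059, Gabrb2 at chr11:42419757-42629028 and Gabrd at chr4:155384980-155398112. Gabra4 and Gabrb1 stand head to head and their exons overlap by 46 bases, 0.76% of the Gabra4 exons and 0.33% of the Gabrb1 exons. The exons of Gabra5 overlap those of the antisense gene Gm9962 by 148 bases, or 4.98%. Whether the counting used strand is not given, so the counts of these 3 genes are uncertain to that extent.

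Levels of different genes were compared as CPM, counts scaled to a common library size, per kilobase (kb) of exon. Gabra5 was the most abundant member, at a mean of 98.2 CPM per kb over the 23 libraries, followed by Gabrb2 at 53.5 and Gabra2 at 32.1 CPM per kb. Gabra3 (21.7 CPM per kb) and Gabra4 (19.5 CPM per kb) were close, and Gabrd (4.70 CPM per kb) and Gabrb1 (2.52 CPM per kb) were lowest. Gabra5 stood above Gabrb2, Gabrb2 above Gabra2, Gabra4 above Gabrd and Gabrd above Gabrb1 in 23 of 23 libraries, and Gabra2 above Gabra3 in 21. Per kb of the longest transcript Gabrb2 averaged 85.4 CPM, and Gabra5 stood above it in 21 of 23 libraries. The order of Gabra3 and Gabra4 was not settled: Gabra3 was the higher in 16 of 23 libraries per kb of merged exons, and in 3 of 23 per kb of the longest transcript.

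Of 9 other subunits read beside them, 4 passed the filter, all at low levels: Gabrg1 (3.84 CPM per kb), Gabrg3 (0.54), Gabrq (0.491) and Gabrr1 (0.125). Gabra6, Gabre, Gabrp, Gabrr2 and Gabrr3 did not pass the filter.

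**Figure D1:**
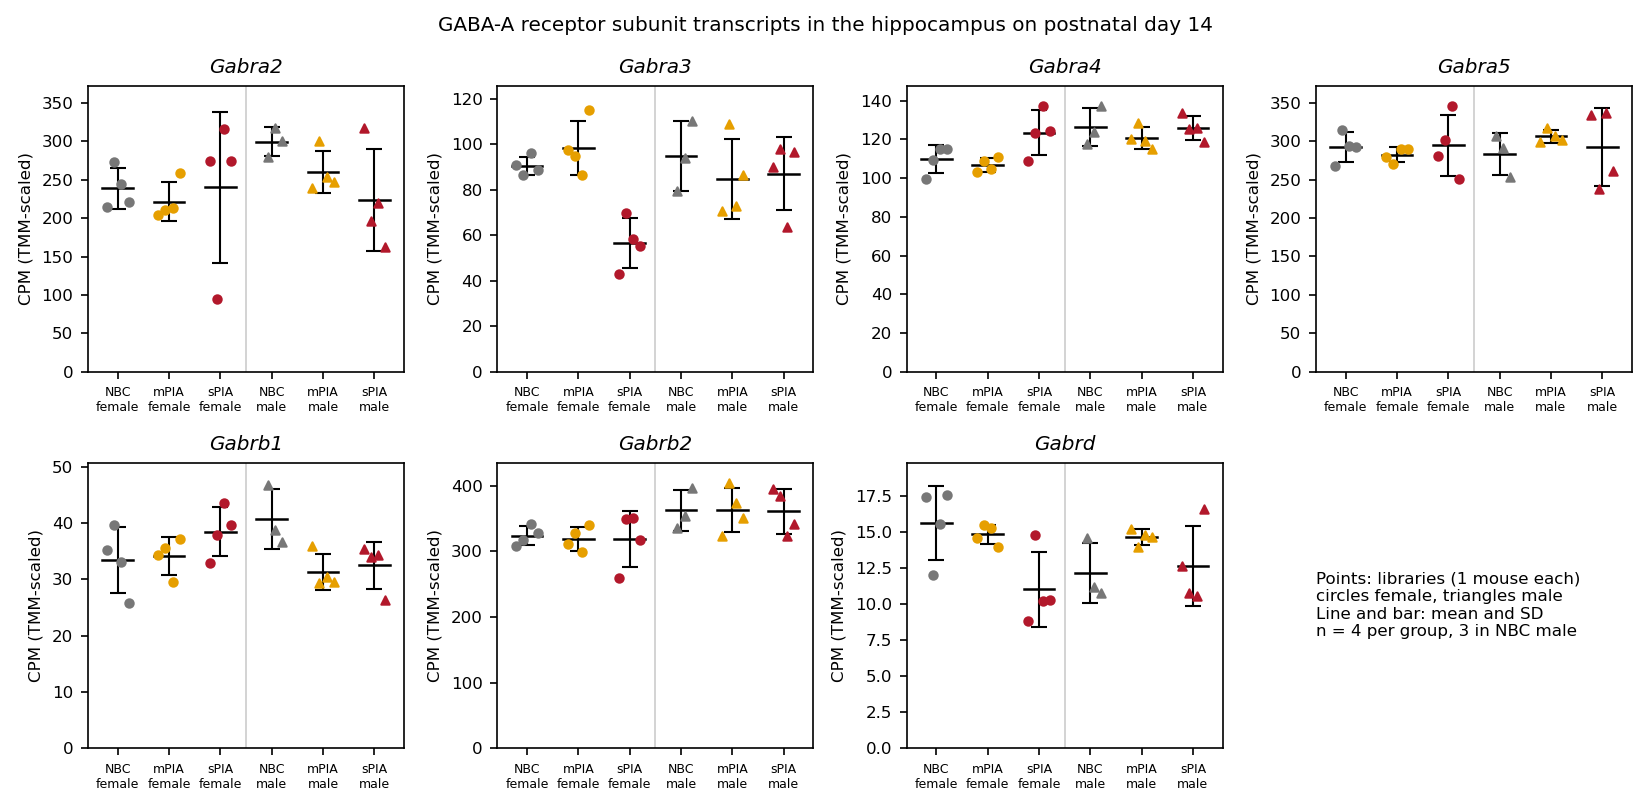
TMM-scaled CPM of the 7 subunits in each library (circles females, triangles males), in the order NBC, mPIA, sPIA within each sex, with the mean and SD of each group as line and bar (n = 4, NBC males 3). The 4 sPIA females hold the lowest Gabra3 values among females, between 42.95 and 69.8 CPM, and sPIA female 2 stands alone with 95.2 CPM of Gabra2.

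Severe anemia in females went with less Gabra3 and less Gabrd transcript than in NBC females, while the other 5 members did not pass the test. Gabra3, the X-linked α3 gene, fell to 0.626 of the NBC level, and Gabrd, the δ gene, to 0.707. These 2 of 7 members (28.6%) compare with 16% of all 15475 genes called in the same contrast, 8.12% higher and 7.86% lower. The median log2 change of the members was 0.0088 and that of all genes -1e-04.

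Gabra3 had 42.95, 69.8, 58.5 and 55.2 CPM in the sPIA females, against 90.9, 86.66, 96.1 and 88.7 CPM in the NBC females. All 4 sPIA females lay below all 4 NBC females, with a gap between the groups. The share of all genes whose groups separate is not given here, for this or any later comparison. Means were 56.6 ± 11.1 CPM in sPIA females and 90.59 ± 4.04 CPM in NBC females (SD, n = 4 each). That is a fitted log2 change of -0.68 (SE 0.16; adjusted p = 0.00699, edgeR quasi-likelihood test with Benjamini-Hochberg adjustment over all genes). The call held in 8 of 8 fits that left out 1 library, with log2 changes between -0.78 and -0.56 and adjusted p between 0.00399 and 0.0244. With the GC and length trend of each library removed, the log2 change of Gabra3 was -0.81 (adjusted p = 0.00235).

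Gabrd had 8.8, 14.7, 10.2 and 10.3 CPM in the sPIA females, against 17.4, 12.0, 15.54 and 17.5 CPM in the NBC females. Of the sPIA females 3 lay below every NBC female, but sPIA female 2 stood above NBC female 2, so the groups overlapped. Its fitted change on the log2 scale was -0.50 (SE 0.15, adjusted p = 0.0249, edgeR), from means of 10.998 ± 2.58 CPM in sPIA females and 15.6 ± 2.58 CPM in NBC females. This call depended on single libraries: it held in 2 of 8 fits that left out 1 library, with log2 changes between -0.67 and -0.40. It was lost without NBC female 1 (adjusted p = 0.0942), 3 (0.051) or 4 (0.0792), and without sPIA female 1 (0.0794), 3 (0.0795) or 4 (0.0708). With the GC and length trend removed the log2 change was -0.36 (adjusted p = 0.147). The longest Gabrd transcript is 54.7% GC, above 75.9% of the genes tested, whereas the 6 other members lie between 38.4% and 47.1%, below the median gene at 49.8%.

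Gabra4, the α subunit that joins δ outside the synapse, had 109, 124, 137 and 124 CPM in the sPIA females, against 99.7, 109.5, 115 and 115 CPM in the NBC females. Of the sPIA females 3 stood above all NBC females, and sPIA female 1 lay among them. The log2 change of 0.17 (SE 0.067) did not pass (adjusted p = 0.081, edgeR). It passed without sPIA female 1, at 0.23 (adjusted p = 0.0155), in 1 of 8 fits without 1 library. Removing the GC and length trend left 0.0093 (adjusted p = 0.945).

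Gabra2 was the most uneven member. It had 275, 95.2, 316 and 275 CPM in the sPIA females, against 215, 273, 245 and 222 CPM in the NBC females. Of the sPIA females 3 lay above every NBC female and the remaining one, sPIA female 2, far below all of them. The means hardly differed (log2 change 0.0088, SE 0.26, adjusted p = 0.989, edgeR). The coefficient of variation was 41.1% in sPIA females and 11.1% in NBC females. Without sPIA female 2 the log2 change was 0.28 (adjusted p = 0.266).

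Gabra5, the α subunit of tonic inhibition in pyramidal cells, lay between 250.2 and 345 CPM in sPIA females and between 268 and 315 CPM in NBC females. Its log2 change was 0.011 (SE 0.095, adjusted p = 0.959, edgeR). Gabrb2, a β subunit of the adult forebrain, lay between 259.7 and 351 CPM in sPIA females and between 308 and 342 CPM in NBC females, with a log2 change of -0.020 (SE 0.084, adjusted p = 0.912). Both ranges in sPIA females enclosed those in NBC females. Gabrb1 differed by 0.20 on the log2 scale (SE 0.12, adjusted p = 0.273), with 32.9 to 43.5 CPM in sPIA females and 25.8 to 39.7 CPM in NBC females. Its log2 change turned to -0.071 with the GC and length trend removed (adjusted p = 0.775).

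Some markers of neuron types moved in the same contrast, in which 16% of all genes were called. The summed level of 5 CA1 pyramidal markers lay between 376 and 575 CPM in sPIA females and between 624 and 707 CPM in NBC females; 5 of 5 had negative log2 changes and 2 were called lower. The 10 interneuron markers summed to 722 to 831 CPM in sPIA females and 871 to 957 CPM in NBC females, with 9 of 10 negative and 2 called lower. The 6 dentate granule cell markers summed to 213 to 328 CPM in sPIA females and 165 to 223 CPM in NBC females, with 5 of 6 positive and 0 called. The 5 pan-neuronal genes summed to 5138 to 5580 CPM in sPIA females and 5040 to 5482 CPM in NBC females. In mPIA females the CA1 markers summed to 649 to 706 CPM and the interneuron markers to 865 to 976 CPM. In males the CA1 markers summed to 473 to 608 CPM in sPIA and 567 to 627 CPM in NBC pups. Of the remaining marker lists in sPIA against NBC females, 1 of 9 deep cortex and subiculum genes was called higher and 1 lower, 1 of 6 thalamus genes and 2 of 7 astrocyte genes were called higher, and 0 genes were called for CA3, striatum, choroid plexus and oligodendrocytes. The 7 astrocyte markers summed to 5938 to 7184 CPM in sPIA females and 5508 to 5663 CPM in NBC females, with 6 of 7 positive. No marker of any of these lists was at 0 in every library. Their part in the Gabra3 and Gabrd changes was not tested, and in whole tissue fewer cells of a type and less RNA per cell cannot be told apart.

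Against moderate anemia, severe anemia in females again went with less Gabra3, and with more Gabra4. These 2 of 7 members compare with 16.1% of all genes called in that contrast, 8.67% higher and 7.48% lower. The mPIA females had 97.7, 94.7, 86.75 and 115 CPM of Gabra3, so all 4 sPIA females (42.95 to 69.8 CPM) lay below them. Gabra3 differed by -0.80 on the log2 scale (SE 0.16, adjusted p = 0.00188, edgeR). It was called in 8 of 8 fits without 1 library (-0.90 to -0.69) and with the GC and length trend removed (-0.92, adjusted p = 0.000616). The NBC and mPIA contrasts share the sPIA females, so these values are not independent of those above.

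Gabra4 had 103, 109, 104 and 111 CPM in the mPIA females. Among the sPIA females (109, 124, 137 and 124 CPM) 3 of 4 stood above all of them, and sPIA female 1 fell within their range. The groups differed by 0.21 on the log2 scale (SE 0.067, adjusted p = 0.0289, edgeR). It was called in 4 of 8 fits without 1 library, and not without mPIA female 1 (adjusted p = 0.0849), mPIA female 3 (0.0689), sPIA female 3 (0.135) or sPIA female 4 (0.0546). With the GC and length trend removed it was 0.046 (adjusted p = 0.638). Gabra4 has a GC content of 42.2%, with 13.05% of the genes tested lower. The cause of the difference between these fits was not tested.

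Gabrd, with 14.6, 15.48, 15.2 and 13.96 CPM in the mPIA females, had a log2 change of -0.43 in sPIA against mPIA females (SE 0.15, adjusted p = 0.0519, edgeR). It passed with DESeq2 (adjusted p = 0.0384), limma-voom (0.0355), a fit of only these groups (0.0391) and without sPIA female 2 (0.00809), but not in the other 7 fits without 1 library. It was -0.28 with the GC and length trend removed (adjusted p = 0.259). Of the 4 sPIA females 3 (8.8, 10.2 and 10.3 CPM) lay below every mPIA female, and sPIA female 2 (14.7 CPM) lay among them. Log2 changes of Gabra2 (0.12), Gabra5 (0.061), Gabrb1 (0.18) and Gabrb2 (-0.00044) had adjusted p of 0.33 or more in this contrast.

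No member passed the test in females with moderate anemia. Of all genes, 1 (0.00646%) passed edgeR's test in mPIA against NBC females, 55 had an unadjusted p under 0.05, and 0 of 7 members were called, with adjusted p = 1 for each. Gabra3 had a log2 change of 0.12 (SE 0.16), Gabrd of -0.072 (SE 0.15), Gabra2 of -0.11 (SE 0.26) and Gabra4 of -0.040 (SE 0.067). The groups overlapped for each of the 7. Females of these 2 groups share their kind of library code.

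**Figure D2:**
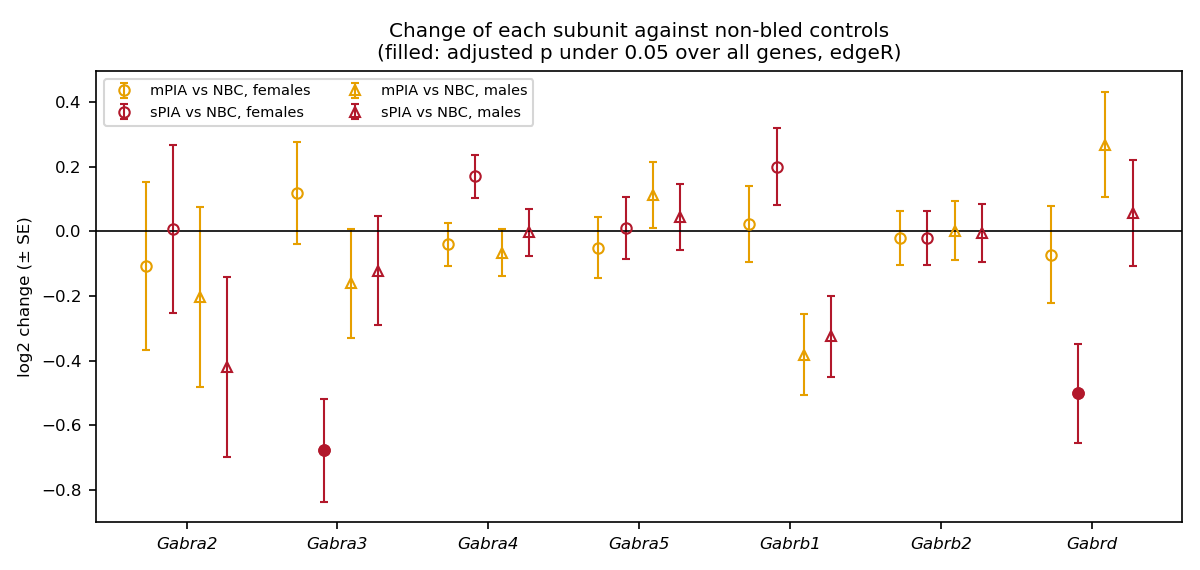
Log2 change (± SE, edgeR) of each subunit in mPIA and sPIA pups against NBC pups of the same sex; circles are females, triangles males, and filled symbols have an adjusted p under 0.05 over all genes. The 2 filled symbols are Gabra3 (-0.68) and Gabrd (-0.50) in sPIA females, and Gabrb1 lies below 0 in both male contrasts and above 0 in both female ones, although in sPIA females it turns to -0.071 with the GC and length trend removed.

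No member passed the test in males. In sPIA against NBC males, 30 genes (0.194%) were called and 0 of 7 members. In mPIA against NBC males it was 101 genes (0.653%) and 0 of 7, and in sPIA against mPIA males 762 genes (4.92%) and 0 of 7. In both comparisons with NBC males 10 of 10 choroid plexus markers were lower in the bled males, with median log2 changes of -3.64 in sPIA and -5.62 in mPIA males, and their part in the values below was not tested beyond the fits named.

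Gabra3 had 89.8, 97.9, 63.7 and 96.8 CPM in sPIA males, against 79.7, 94.1 and 110.5 CPM in NBC males. The groups overlapped, with sPIA male 3 the lowest, and they differed by -0.12 on the log2 scale (SE 0.17, adjusted p = 0.823, edgeR). Both groups of males carry the same kind of library code, but their S numbers differ, at 13 to 16 in sPIA and 38 to 40 in NBC males. The mPIA males had 70.7, 109, 73.0 and 86.4 CPM. Gabrd had 12.6, 10.8, 10.5 and 16.5 CPM in sPIA males, against 14.6, 11.2 and 10.7 CPM in NBC males, for which the fit gave a log2 change of 0.056 (SE 0.16, adjusted p = 0.924). The mPIA males were even in Gabrd, with 15.2, 13.9, 14.75 and 14.6 CPM.

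Gabrb1 was the member with the smallest p in both comparisons of bled with NBC males. It had 35.4, 34.0, 34.4 and 26.3 CPM in sPIA males and 35.9, 29.3, 30.5 and 29.5 CPM in mPIA males, against 46.8, 38.8 and 36.6 CPM in NBC males. All NBC males lay above all bled males, but the lowest NBC male stood only just above the highest of either bled group. Without the share of all genes that separate in this way, the gap adds nothing to the tests. On the log2 scale the difference was -0.32 in sPIA against NBC males (SE 0.13, adjusted p = 0.284, edgeR) and -0.38 in mPIA against NBC males (SE 0.13, adjusted p = 0.129). Both contrasts use the same 3 NBC males. Without NBC male 3 the differences were -0.36 and -0.42, and without NBC male 4 -0.40 and -0.46. In the fit with a choroid plexus covariate they were -0.34 and -0.40. Other libraries left out made them smaller: over 7 fits each they ran from -0.40 to -0.22 in sPIA and from -0.46 to -0.28 in mPIA males. The 7 fits include the one without NBC male 2, which had the highest Gabrb1 value, 46.8 CPM. Gabrb1 was called in none of these fits.

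Gabra2 had 317, 196, 219 and 163 CPM in sPIA males, against 279.9, 318 and 301 CPM in NBC males. Of the sPIA males 3 lay below every NBC male and sPIA male 1 was level with the highest, and the log2 change of -0.42 had a large error (SE 0.28, adjusted p = 0.592, edgeR). The mPIA males had 239.6, 301, 254 and 247 CPM. Log2 changes of Gabra4 (-0.0033), Gabra5 (0.044) and Gabrb2 (-0.0054) in sPIA against NBC males had adjusted p of 0.903 or more.

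The sex difference of the anemia effect was tested as an interaction. For severe anemia 147 genes (0.95%) were called and 0 of 7 members. The female effect minus the male effect was -0.56 for Gabra3 (SE 0.23, adjusted p = 0.238, edgeR) and -0.56 for Gabrd (SE 0.22, adjusted p = 0.21), so calls in females alone do not show that the sexes differed. Gabrb1 had the smallest p of the members, with 0.52 (SE 0.17, adjusted p = 0.129). Removal of the GC and length trend left it at 0.28 (adjusted p = 0.43), behind Gabra3 (-0.64, adjusted p = 0.172) and Gabrd (-0.45, 0.342). For moderate anemia 0 genes (0%) were called by edgeR and by DESeq2, 1103 had an unadjusted p under 0.05, and 0 of 7 members passed.

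Between NBC females and NBC males 1570 genes (10.1%) were called and 0 of 7 members. Gabra3, although X-linked, had a log2 difference of -0.065 (SE 0.17, adjusted p = 0.85, edgeR), from 90.59 ± 4.04 CPM in NBC females (n = 4) and 94.8 ± 15.4 CPM in NBC males (SD, n = 3). Gabra4 came closest to the threshold, at -0.20 (SE 0.072, adjusted p = 0.0687; 0.0297 without NBC male 2 and 0.0447 with DESeq2), and its NBC females (99.7 to 115 CPM) all lay below its NBC males (118 to 137 CPM). Gabra2 also did not overlap, with 215 to 273 CPM in NBC females and 279.9 to 318 CPM in NBC males, at a log2 difference of -0.33 (SE 0.28, adjusted p = 0.491). How common such a separation is over all genes is not given here, so it adds nothing to the tests. These 2 groups carry different kinds of library code, so sex and code series cannot be told apart here. With the GC and length trend removed, the log2 difference between them was -0.065 for Gabra4 (adjusted p = 0.516) and -0.069 for Gabra2 (0.923).

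The make-up of the α pool was described from levels per kb within each library, as shares of the 4 α members. Gabra5 took the largest share in every group, with 60.0 ± 5.06% in sPIA females and 53.1 ± 4.44% in NBC males (SD) as the highest and lowest group means. In females the Gabra3 share was 13.6 ± 1.09% in NBC, 15.1 ± 1.22% in mPIA and 8.84 ± 2.13% in sPIA pups. In males it was 13.48 ± 2.40% in NBC, 12.0 ± 1.75% in mPIA and 13.3 ± 3.61% in sPIA pups. The highest sPIA female share, 11.7%, lay below the lowest NBC female share, 12.2%. Gabra4 took 12.4 ± 1.10% in sPIA females and 10.6 ± 0.557% in NBC females, and Gabra2 18.8 ± 7.13% in sPIA females and 18.3 ± 1.07% in NBC females. These shares and the ratios that follow reuse the counts tested above and were not tested again.

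Gabra4 exceeded Gabra3 per kb in all 4 sPIA females, at a ratio of 1.44 ± 0.211 (1.14 to 1.64), and lay below it in all 4 NBC females, at 0.783 ± 0.0565 (0.707 to 0.835). It was 0.705 ± 0.0679 in mPIA females. Group means of males lay between, at 0.868 ± 0.0778 in NBC, 0.942 ± 0.161 in mPIA and 0.963 ± 0.220 in sPIA males. The sizes of these ratios depend on the gene lengths used, as the unsettled order of the 2 genes shows, but a change of length moves all libraries by the same factor. Gabrd per Gabra4, the partners of the tonic receptor, was 0.189 ± 0.0432 in sPIA females and 0.302 ± 0.0583 in NBC females, with overlap (0.157 to 0.252 in sPIA and 0.231 to 0.369 in NBC females). In mPIA females the Gabrd to Gabra4 ratio was 0.294 ± 0.0188. In males it was 0.213 ± 0.0550 in sPIA, 0.257 ± 0.0186 in mPIA and 0.206 ± 0.0498 in NBC pups. The 2 genes differ in GC content (54.7% for Gabrd, 42.2% for Gabra4), and the ratio was taken without removing the GC trend of each library. The part of that trend in the ratio was not tested. Gabrb2 exceeded Gabrb1 between 15.6-fold and 30.0-fold in every library.

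**Figure D3:**
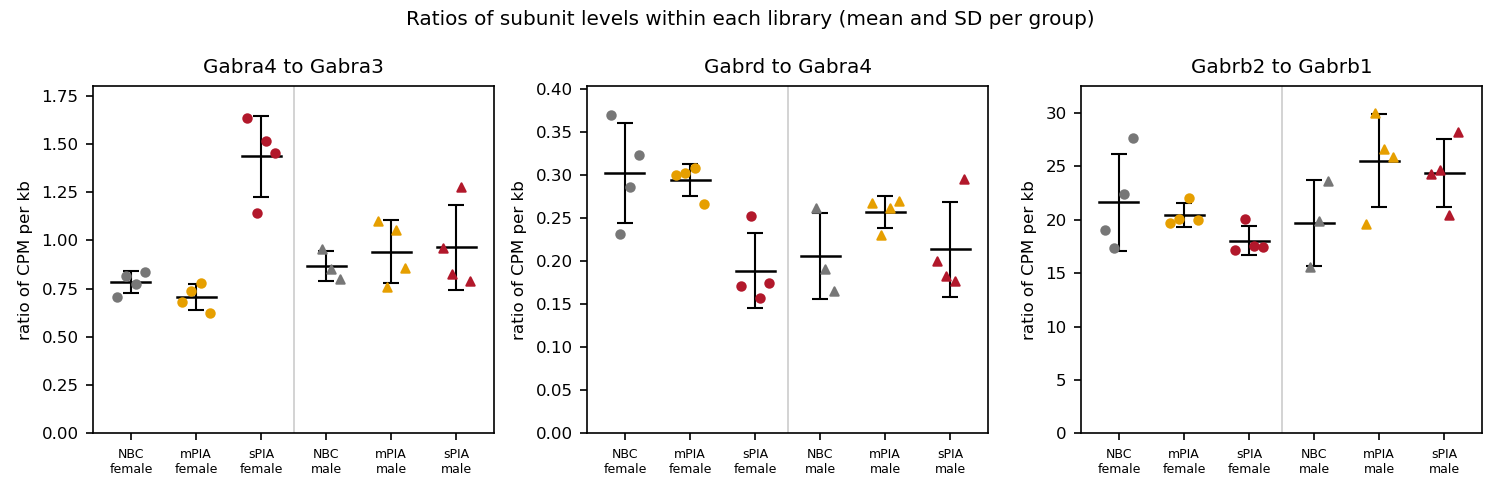
Ratios of levels per kb within each library for Gabra4 to Gabra3, Gabrd to Gabra4 and Gabrb2 to Gabrb1, in the order NBC, mPIA, sPIA within each sex (circles females, triangles males, line and bar the mean and SD). The 4 sPIA females lie between 1.14 and 1.64 for Gabra4 to Gabra3, above all NBC females (0.707 to 0.835) and all mPIA females.

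The other subunits were read beside the members. In sPIA against NBC females 0 of 4 tested were called by edgeR, beside 16% of all genes. The nearest were Gabrg3, a γ subunit (log2 change -0.47, adjusted p = 0.061) and Gabrq, which encodes the θ subunit (-0.83, 0.184). Gabrg1 (0.21, 0.278) and Gabrr1, a ρ subunit (0.53, 0.692), did not pass either. With the GC and length trend removed Gabrg3 passed, at -0.68 (adjusted p = 0.016). Gabrg3 averaged 4.58 ± 0.775 CPM in sPIA females and 6.36 ± 0.976 CPM in NBC females.

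In sPIA against mPIA females 2 of these 4 were called, Gabrg3 (-0.76, adjusted p = 0.00276) and Gabrq (-1.26, adjusted p = 0.0335), both lower. Of all genes 16.1% were called in that contrast, 7.48% lower. Gabrq is scarce, with 1.40 ± 0.644 CPM in sPIA females and 3.40 ± 0.981 CPM in mPIA females, and its call held in 2 of 8 fits without 1 library (-1.62 to -1.07). In the contrasts of males and in mPIA against NBC females none of the 4 passed. The 5 subunits below the filter averaged at most 0.362 CPM in any group, the highest being Gabre in NBC males.

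Receptor partners, the proteins that traffic, anchor or recycle GABA-A receptors, had 21 genes with a row out of 23 read here, and all 21 were tested. Of these, 7 (33.3%) were called in sPIA against NBC females, 3 higher and 4 lower, beside 16% of all genes. The median log2 change was -0.0029. In sPIA against NBC males, mPIA against NBC females and mPIA against NBC males, 0 of 21 were called by edgeR. In sPIA against mPIA females 5 (23.8%) were called, 3 higher and 2 lower, beside 16.1% of all genes.

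Plcl1, a phospholipase-related protein that regulates receptor phosphorylation and insertion, had the largest change of the 7. It averaged 38.2 ± 1.77 CPM in sPIA females and 23.6 ± 3.12 CPM in NBC females, with 36.4 to 40.6 CPM against 18.9 to 25.2 CPM (log2 change 0.70, SE 0.11, adjusted p = 0.000173, edgeR). All sPIA females stood above all NBC females, and the call held in 8 of 8 fits without 1 library and with the GC and length trend removed (0.54, adjusted p = 0.00175). Plcl1 was also lower in NBC females than in NBC males (-0.51 on the log2 scale, adjusted p = 0.00989, edgeR), but not called so without NBC male 4 (-0.38, adjusted p = 0.0982) or with the GC and length trend removed (-0.37, 0.0639).

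Rdx, whose product radixin anchors α5 receptors outside the synapse, averaged 131 ± 5.398 CPM in sPIA females and 108 ± 4.12 CPM in NBC females (log2 change 0.28, adjusted p = 0.00384, edgeR). Like Plcl1, Rdx was also called lower in NBC females than in NBC males (126 ± 16.6 CPM), but under only 3 of 8 alternatives beside the left-out libraries. It averaged 128 ± 8.73 CPM in sPIA males, 111 ± 2.29 CPM in mPIA males and 106 ± 2.55 CPM in mPIA females. Trak2, a transport adaptor, was higher by 0.29 on the log2 scale (adjusted p = 0.0114). Among the lower ones were Clptm1, which holds receptors back in the endoplasmic reticulum (-0.22, adjusted p = 0.00524), Igsf9b, an adhesion protein of inhibitory synapses (-0.54, adjusted p = 0.0443), and Hap1 (-0.40, adjusted p = 0.0455). With the GC and length trend removed Rdx (0.16, adjusted p = 0.0853), Clptm1 (-0.14, 0.0635), Trak2 (0.20, 0.112) and Hap1 (-0.22, 0.368) no longer passed. Hap1 was called in 1 of 8 fits without 1 library, and not without the low-count filter (adjusted p = 0.0707), with the replicate block (0.0736) or with the choroid plexus covariate (0.0532). Igsf9b passed with the GC and length trend removed (-0.58, adjusted p = 0.0183). It was called in only 2 of 8 fits without 1 library, and not without the low-count filter (adjusted p = 0.0533) or in a fit of only these groups (0.123).

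The members did not vary as a block. After group means were removed, Pearson's r of log2 CPM over the 23 libraries was 0.81 for Gabra3 with Gabrb2 and 0.79 for Gabra4 with Gabrb2. It was 0.47 for Gabra3 with Gabra4. The lowest value was -0.67, for Gabra2 with Gabrd. By Pearson's r the chromosome 5 neighbours were loosely tied, with 0.28 for Gabra2 and Gabra4, 0.23 for Gabra2 and Gabrb1 and 0.15 for Gabra4 and Gabrb1. Rank correlations of these pairs were 0.46, 0.17 and 0.13 in the same order, so the first pair depended on the measure. For Gabra3 with Gabra4 the rank correlation was 0.45. These are descriptions without a test, since the points share their library's depth, GC trend and dissection.

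**Figure D4:**
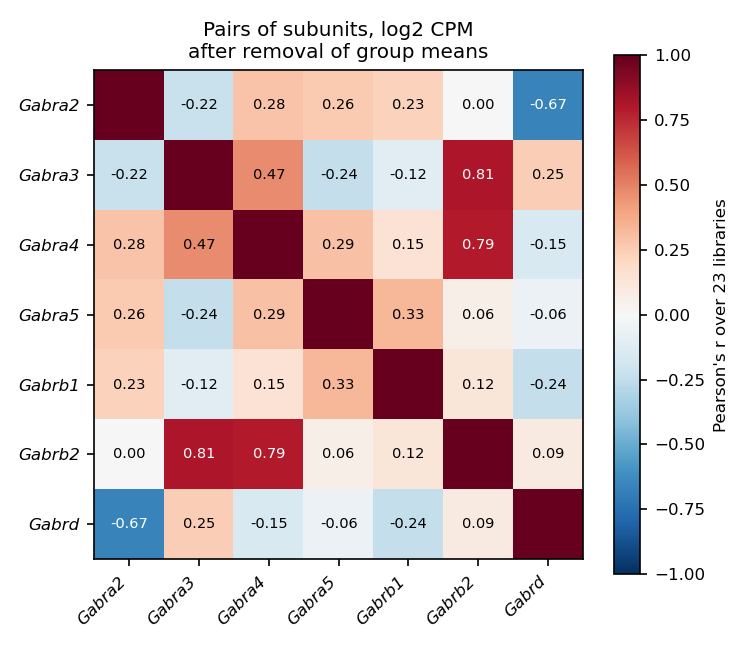
Pearson's r between the 7 subunits over 23 libraries, on log2 CPM with each group's mean removed, from blue (negative) to red (positive). The strongest cells off the diagonal are Gabra3 with Gabrb2 (0.81), Gabra4 with Gabrb2 (0.79) and Gabra2 with Gabrd (-0.67).

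For each member the genes with the most similar profile over the 23 libraries were taken from 12505 genes by Pearson's r of log2 CPM. Gabra3 was closest to Ldb2, a cofactor of LIM-domain transcription factors (r = 0.92), Nov, a secreted matrix protein (0.91), and Tox, a nuclear DNA-binding protein (0.91). With group means removed these were 0.85, 0.82 and 0.86. Gabra4 was closest to Snx13 (0.93), Gmps (0.93) and Rb1cc1 (0.92), and Gabrb2 to Olfm3 (0.90).

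Gabra5 was closest to Cntnap2 (0.82), an axonal adhesion gene, Ap1ar (0.82) and the cation channel gene Trpc5 (0.81). The genes nearest to Gabrd were Cyp2s1 (0.85), the kinase subunit gene Camk2g (0.82) and Inpp5a (0.82). Gabrb1 had Ago2 (0.86), Cbl (0.78) and Tnr (0.77) as nearest genes. Gabra2 had the weakest neighbours, Tcea1 (0.78), B3gat2 (0.75) and Timmdc1 (0.73).

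The region before the Gabra3 start is shown because Gabra3 is the member whose change held in every fit named above. It holds the 250 bases before the outermost annotated start (RefSeq, GRCm38.p6, chrX:72656920-72657169, minus strand, written 5′ to 3′ on that strand), with no annotated exon.
Gabra3: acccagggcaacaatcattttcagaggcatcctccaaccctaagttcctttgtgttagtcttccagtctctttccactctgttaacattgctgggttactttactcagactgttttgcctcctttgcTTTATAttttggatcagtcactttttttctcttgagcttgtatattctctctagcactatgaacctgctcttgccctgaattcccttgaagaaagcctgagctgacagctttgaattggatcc
The capitals mark a match to TATAAA on the opposite strand, a motif that 13% of 27025 mouse promoter windows of the same length hold on either strand. Searched on both strands, the window held no GC box (GGGCGG, in 33% of windows), no hypoxia response core (ACGTG or GCGTG, 38.6%), no cAMP response element (TGACGTCA, 1.6%) and no EGR site (GCGTGGGCG or GCGGGGGCG, 3.04%). Its GC content was 42.4%, with 17.6% of windows lower, while the windows of the 5 other members with an entry lay between 56.4% and 70.0%. A match is only a run of letters in this window, and the absence of one says nothing about the factor.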

How the data were processed

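Hippocampal RNA was extracted with an RNAqueous kit and made into Illumina TruSeq libraries, per the labels' protocols. The values of the deposited table are raw read counts per gene, whole numbers with unequal totals. FastQC, TopHat2 2.0.13, Subread, edgeR and the build mm10 are named in the submitters' processing notes. Annotation, strand setting and the handling of reads with several matches are not given there. All sample columns were matched to the labels by name, and groups came from the labels alone. No 2 libraries of a group agreed within counting noise: over 33 pairs chi-square divided by its degrees of freedom ran from 3.09 to 31.3.

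From these counts, edgeR 4.0.16 (R 4.3.3) gave TMM-scaled CPM and the quasi-likelihood test with robust fitting, in 1 fit of 23 libraries with 6 group means. Genes passed filterByExpr (minimum count 10, minimum total 15), and p-values were adjusted by Benjamini-Hochberg at 0.05 over 15475 genes in each of 9 comparisons. Log2 CPM used a prior count of 2, and similar genes had a mean log2 CPM of at least 1. Alternatives were DESeq2 1.42.0, limma-voom (limma 3.58.1), other size factors, no filter, only the groups compared, a replicate block, a library-code block, a choroid plexus covariate, each library left out in turn and, chosen after seeing the data, removal of the GC and length trend. GC and length were known for 96.2% of the genes tested. Library totals of 15.2 to 44.4 M counts set the counting error, which is largest for Gabrd, the member with the lowest CPM.

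The members, the lists of other subunits, partners and markers, and the tests were chosen with earlier results of these data known. The text names every member, every other subunit read here, up to 6 called partners in each comparison with NBC by smallest p, and up to 3 genes most like each member. Genes with predicted or date-like names were not named, and a few other genes are not reported here.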

Additional observations from a re-analysis of the deposited data

Results flagged for a closer look

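Among 35 groups of 4 libraries tested over the 7 subunits, 1 library stood apart by Dixon's criterion: Gabrb1 in sPIA male 4 had 26.3 CPM, against 34.0 to 35.4 CPM in the other sPIA males, a gap of 0.846 of the whole range where the critical value is 0.829. Chance marks about 1 in 20 groups in this way. The low Gabra2 value of sPIA female 2 (95.2 CPM) did not pass that criterion.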

How the results depend on the processing

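Counts of genes called over all genes, for the 9 comparisons, were 2472 (sPIA against NBC females), 30 (sPIA against NBC males), 1 (mPIA against NBC females), 101 (mPIA against NBC males), 2499 (sPIA against mPIA females), 762 (sPIA against mPIA males), 147 (sex difference of the sPIA effect), 0 (of the mPIA effect) and 1570 (NBC females against NBC males). With 1 library left out they ran from 1421 to 2705, 4 to 249, 0 to 1, 0 to 1124, 1582 to 2769, 230 to 1340, 5 to 327, 0 to 69 and 440 to 2152, in the same order. Without NBC male 2 the counts were the highest of these for every comparison that uses NBC males. The members called ran from 1 to 2 in sPIA against NBC females, from 1 to 3 in sPIA against mPIA females and from 0 to 1 in NBC females against NBC males, and stayed at 0 elsewhere.

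Among the other alternatives, values over 1.5 times apart were as follows, and their cause was not tested. DESeq2 called 155 genes in sPIA against NBC males, 381 in mPIA against NBC males, 1220 in sPIA against mPIA males and 463 for the sex difference of the sPIA effect, and 1 member in NBC females against NBC males, Gabra4 (adjusted p = 0.0447). Limma-voom called 24 genes in mPIA against NBC males and 0 in mPIA against NBC females. A fit of only the groups compared called 6 in sPIA against NBC males, 2 in mPIA against NBC females, 0 in mPIA against NBC males, 307 in sPIA against mPIA males, 5 for the sex difference of the sPIA effect and 668 in NBC females against NBC males. With the choroid plexus covariate these were 13 in sPIA against NBC males, 0 in mPIA against NBC males, 447 in sPIA against mPIA males, 54 for the sex difference and 773 in NBC females against NBC males. The library-code block called 6 genes in mPIA against NBC females.

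Removal of the GC and length trend, chosen after seeing the data, left 1218 genes in sPIA against NBC females, 1432 in sPIA against mPIA females, 263 in sPIA against mPIA males and 644 in NBC females against NBC males. It left 1 member called, Gabra3, in each of the first 2 of these. Gabra3 was called in sPIA against NBC females and against mPIA females under 8 of 8 alternatives beside the left-out libraries, and Gabrd in sPIA against NBC females under 7 of 8.

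Replicate numbers did not meet the criterion for pairs, every correlation above 0.1, in any comparison. Same-numbered pairs correlated between -0.172 and 0.149, with 3 of 25 above 0.1 and 7 of 25 best matched to their own number. In mPIA against NBC females 3 of 4 were above 0.1 (0.0358 in the remaining pair), 4 of 4 were best matched to their own number, and same-numbered libraries share the start of their code, a hint of pairing that the labels do not explain. With the replicate block 0 genes were called in mPIA against NBC females, 43 in mPIA against NBC males and 93 for the sex difference of the sPIA effect, and no member's call changed. The order of Gabra3 above Gabra4 per kb held in 3 of 23 libraries with the longest transcript, against 16 with merged exons. With 3 or 4 mice a group, changes of the size of the SEs given cannot be resolved.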
